A study of Mus musculus with 8 samples.

Results

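Heterotrimeric G proteins carry into the cell the signal of the brain's largest class of receptors for neurotransmitters, hormones and peptides, and the 56 genes described here encode their subunits and the regulators of G protein signalling (RGS) that switch them off. The genes were chosen by name: every non-control probe whose gene name in the array files begins as one of the alpha, beta or gamma subunit genes or as an RGS gene. This gave 90 of 39429 probes, for 16 alpha, 5 beta, 12 gamma and 21 RGS genes and for 2 genes named after the RGS proteins they bind, Rgs7bp and Rgs9bp. No measured value selected a gene, but the family was proposed with fasted and fed values of these arrays known, so counts over its members are given as descriptions.

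The arrays measured RNA of mouse brain after 17 h of fasting and in mice that were fed over the same time, with 4 arrays in each group. Each sample was hybridised alone, in the dye Cy3, to an Agilent array of 60-base probes. The labels give no strain, genotype, sex or age. They do not state how many mice stand behind a sample, and p-values therefore reflect only how the samples varied, which can include technical variation. The comparison asks how fasting changes the brain's transcripts. Values are scaled log2 signals, that is, log2 of a probe's processed intensity minus the 75th percentile of its array, so 0 is the level of the 75th percentile and a difference of 1 is 2-fold. Differences are fasted minus fed. They compare the same probe between arrays. Levels of different probes were compared only to choose a gene's brightest probe. They were added only in the sums given for marker lists, where bright probes weigh most.

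At rest the alpha subunit holds GDP and sits on a dimer of beta and gamma. An active receptor makes alpha exchange GDP for GTP, alpha and the beta-gamma dimer part, and each acts on its own targets: Gs and Golf alpha stimulate adenylyl cyclase, Gi/o alpha inhibit it, Gq/11 alpha activate phospholipase C beta and G12/13 alpha activate a group of guanine nucleotide exchange factors, while beta-gamma opens GIRK potassium channels. RGS proteins speed the hydrolysis of GTP by alpha and so shorten the signal, each subfamily with its own preference among the alpha subunits.

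A gene was tested when its probe was well above background on at least 4 of the 8 arrays, and a gene with several such probes was represented by its brightest. This held for 49 of the 56 genes: 15 alpha, 5 beta, 11 gamma and 16 RGS genes and both RGS-binding genes. Of these, 46 were well above background on all 8 arrays. Gnat1 and Rgs9bp reached this on 2 arrays of each group, and Gna14 on 3 fasted and 2 fed arrays. The 7 genes not tested were well above background on 0 arrays: Gnat3, the taste alpha subunit gustducin, Gngt1, the gamma subunit of rod transducin, and Rgs1, Rgs13, Rgs18, Rgs21 and Rgs22.

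Fasted brain had lower levels of 8 of the 49 genes and higher levels of 0, by limma with Benjamini-Hochberg adjustment over the 17057 genes tested and a threshold of 0.05. At an unadjusted limma p under 0.05 the number was 16 in either direction. Of these, Gna11, Gna13, Rgs3 and Rgs4 were higher in fasted brain. The share of all genes at that level is not given here, and nothing is read from the number. The 8 genes were the alpha subunits Gna12 and Gnai3, the gamma subunits Gng11, Gng8, Gng5 and Gngt2, and the RGS genes Rgs16 and Rgs11. Over all genes tested 10.2% were higher and 9.66% lower, which is 19.9% in either direction, and nothing is read from the members' 16.3% beside it. By class, 4 of 11 gamma genes, 2 of 15 alpha genes, 2 of 16 RGS genes, 0 of 5 beta genes and 0 of 2 RGS-binding genes passed. The largest change was a 1.45-fold lower level of Rgs16, and the smallest of the 8 was 1.08-fold, in Gng5.

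**Figure D1:**
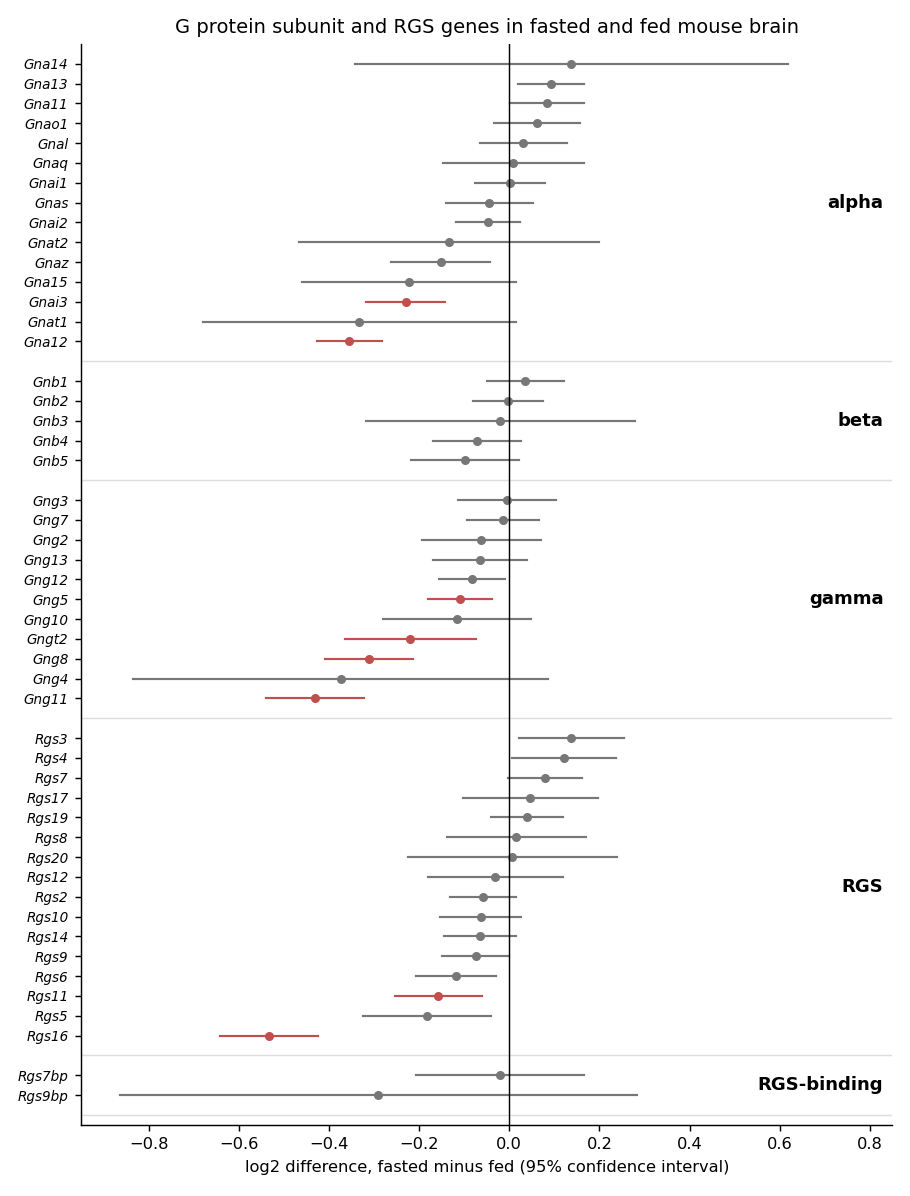
Log2 difference, fasted minus fed, of each of the 49 tested genes (points) with its 95% confidence interval (lines), by class, over 4 arrays per group. The 8 genes past the threshold are red and all lie below 0, from -0.53 for Rgs16 to -0.11 for Gng5, while the intervals of most alpha, beta and RGS genes include 0.

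The calls fell into 2 sets by how firmly they held. Rgs16, Gna12, Gng11, Gng8 and Gnai3 passed under each of 17 alternative settings run on arrays of both slides, which changed scaling, background correction, probe filter, probe choice, blocks and the arrays included. Gng5, Gngt2 and Rgs11 lost the call under 11, 9 and 10 of them, and their values are given below with that limit. The arrays lay on 2 slides, with replicates 1 and 2 of both groups on slide 1 and replicates 3 and 4 on slide 2. On both slides the fasted arrays had positions 1 and 3 and the fed arrays positions 2 and 4, and position and fasting cannot be told apart.

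The sequences just upstream of the genes whose calls held were taken from the RefSeq promoter table of build GRCm38.p6, as 250 bases before the annotated start, read 5′ to 3′ on the gene's strand. They are shown so that the regulatory sequence of the genes that fell can be read beside their values. Of the 56 genes, 41 matched the table, with 54 promoters. Capitals mark matches to the GC box (GGGCGG or CCGCCC), the E-box CACGTG and the core TGACG (or CGTCA) of the cyclic AMP response element, searched on both strands. The full element TGACGTCA contains that core. Gng11 is named only.
Rgs16, chr1:153740103-153740352, plus strand: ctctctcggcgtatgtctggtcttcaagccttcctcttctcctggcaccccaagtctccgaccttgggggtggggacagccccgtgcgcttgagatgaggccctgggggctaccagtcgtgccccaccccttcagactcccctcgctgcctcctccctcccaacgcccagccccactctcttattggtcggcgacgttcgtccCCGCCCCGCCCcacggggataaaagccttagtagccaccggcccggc
Gna12, chr5:140830432-140830681, minus strand: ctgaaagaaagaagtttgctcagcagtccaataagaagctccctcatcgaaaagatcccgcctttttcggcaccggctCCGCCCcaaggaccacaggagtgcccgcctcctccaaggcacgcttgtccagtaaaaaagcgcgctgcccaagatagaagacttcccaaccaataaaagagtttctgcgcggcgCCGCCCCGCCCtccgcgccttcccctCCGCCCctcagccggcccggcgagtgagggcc
Gng8, chr7:16891536-16891785, plus strand: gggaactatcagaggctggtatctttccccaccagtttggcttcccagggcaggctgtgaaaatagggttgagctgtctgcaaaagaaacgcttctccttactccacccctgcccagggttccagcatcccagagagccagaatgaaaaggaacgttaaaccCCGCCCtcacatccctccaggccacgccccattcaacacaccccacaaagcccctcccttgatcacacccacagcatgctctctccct
Gnai3, chr3:108146153-108146402, minus strand: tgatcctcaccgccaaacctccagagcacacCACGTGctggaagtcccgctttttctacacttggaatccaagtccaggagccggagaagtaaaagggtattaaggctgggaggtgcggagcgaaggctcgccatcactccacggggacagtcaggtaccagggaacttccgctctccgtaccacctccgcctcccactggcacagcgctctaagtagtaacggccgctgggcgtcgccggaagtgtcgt

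These 4 promoters shared no single motif. Rgs16 held 2 GC boxes that overlap by 1 base, Gna12 held 4, of which 2 overlap in the same way, Gng8 held 1 and Gnai3 held 0. Gnai3 held 1 E-box and the others 0, and none of the 4 held the core of the cyclic AMP response element. Over the family, 25 of 54 promoters (46.3%) held a GC box against 32.7% of the 32851 promoters in the table. An E-box stood in 4 of 54 (7.41%, against 6.02%) and the TGACG core in 12 of 54 (22.2%, against 17.8%). The full element TGACGTCA stood in 0 of the 54 and in 1.55% of all promoters. Several promoters can belong to 1 gene, as for 9 family genes, and a match is a description of letters in this window.

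Among the alpha subunits, the G12/13 subfamily held both the firmest fall and a gene on the other side of 0. Gna12, which couples receptors to the cytoskeleton, gave scaled log2 signals of 1.49, 1.50, 1.56 and 1.56 on fasted arrays 1 to 4 and of 1.90, 1.87, 1.87 and 1.90 on fed arrays 1 to 4. All 4 fasted arrays were lower than every fed array, with a gap several times wider than the spread within either group. The group means were 1.53 ± 0.04 (fasted) and 1.89 ± 0.02 (fed; SD, n = 4), a 1.28-fold fall (95% confidence interval 1.22 to 1.34; limma adjusted p = 0.000825). The difference was -0.39 on slide 1 and -0.32 on slide 2. In mm9, to which the array design refers, its probe spans bases 141234527 to 141234586 of chromosome 5. A second, dimmer Gna12 probe gave -0.20 and did not pass (limma adjusted p over probes = 0.239).

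Gna13, the other member of that subfamily, was higher on every fasted array than on any fed array, but its difference of 0.09 (0.02 to 0.17) did not pass (limma adjusted p = 0.0762). It passed when all kept probes of a gene were averaged, at 0.12 (limma adjusted p = 0.0345).

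Of 7 tested Gi/o genes, which encode the alpha subunits that lower cyclic AMP or, in the eye, carry the light signal, 1 passed. Gnai3, one of 3 closely related inhibitory alpha subunits, read 0.09, 0.08, 0.01 and 0.12 on the fasted arrays and 0.25, 0.32, 0.28 and 0.36 on the fed arrays. The groups did not overlap. The level fell 1.17-fold (1.1 to 1.25; limma adjusted p = 0.00632), with differences of -0.20 and -0.26 on slides 1 and 2. Its probe is at 107910599 to 107910658 of chromosome 3 in mm9.

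The paralogs of Gnai3 did not pass. Gnai2, which is widely expressed and abundant in glia and blood cells, read 2.89, 2.94, 2.99 and 2.95 in fasted and 2.99, 2.96, 2.99 and 3.01 in fed brain. The groups overlapped, and the difference was -0.05 (95% confidence interval -0.12 to 0.02; limma adjusted p = 0.315). Gnai1 gave 0.00 (-0.08 to 0.08). These intervals lie above the -0.23 estimated for Gnai3, although the difference between the paralogs was not tested.

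Gnao1 encodes the alpha subunit of Go, the main G protein of neuronal membranes. Its brightest probe read 4.14, 4.12, 4.25 and 4.11 in fasted and 4.12, 4.05, 4.15 and 4.06 in fed brain, which overlap. The difference was 0.06 (-0.03 to 0.16; limma adjusted p = 0.336). A second probe for Gnao1 gave the opposite sign and is described with the other probes below.

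Gnaz, a Gi/o alpha subunit that pertussis toxin does not modify, stood just outside the threshold. Fasted arrays read -0.90, -0.89, -0.80 and -0.78 and fed arrays -0.72, -0.59, -0.70 and -0.75, and the groups did not overlap. The difference was -0.15 (-0.26 to -0.04; limma adjusted p = 0.057), with -0.24 on slide 1 and -0.07 on slide 2. It passed with quantile normalisation (0.0485), with probes above background on all arrays (0.0473) and with the mean of its probes (0.0375).

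The transducins of rods and cones, Gnat1 and Gnat2, were close to background and imprecise. Gnat1 differed by -0.33 (-0.68 to 0.01) and Gnat2 by -0.13 (-0.47 to 0.20), and neither passed.

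Neither stimulatory alpha subunit passed, and both had narrow intervals. Gnas, the alpha subunit of Gs, read 5.40, 5.40, 5.35 and 5.33 in fasted and 5.46, 5.48, 5.38 and 5.33 in fed brain on its brightest probe. The groups overlapped, with a difference of -0.04 (-0.14 to 0.05; limma adjusted p = 0.494). Gnal, the Golf alpha subunit through which striatal dopamine and adenosine receptors stimulate adenylyl cyclase, read 3.68, 3.68, 3.82 and 3.67 in fasted and 3.68, 3.65, 3.68 and 3.71 in fed brain. Only fasted array 3 stood out, and the difference was 0.03 (-0.07 to 0.13; limma adjusted p = 0.638).

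None of the 4 Gq/11 genes passed. Gnaq, which activates phospholipase C beta, read 1.99, 2.02, 2.24 and 2.18 in fasted and 2.03, 2.03, 2.13 and 2.20 in fed brain. In both groups the arrays of slide 2 read higher than those of slide 1, and the difference between groups was 0.01 (-0.15 to 0.16; limma adjusted p = 0.947). Gna11, its close paralog, was higher on all fasted arrays by 0.08 (0.00 to 0.17; limma adjusted p = 0.136) and did not pass. Gna14 and Gna15 gave 0.14 (-0.34 to 0.62) and -0.22 (-0.46 to 0.01).

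The 5 beta subunits all kept below the threshold. Gnb1, a beta subunit found throughout the brain, read 2.77, 2.74, 2.76 and 2.71 in fasted and 2.75, 2.77, 2.65 and 2.67 in fed brain, with a difference of 0.04 (-0.05 to 0.12; limma adjusted p = 0.536). Gnb4 read -1.05, -0.94, -0.97 and -0.90 in fasted and -0.83, -0.88, -0.94 and -0.94 in fed brain, a difference of -0.07 (-0.17 to 0.03; limma adjusted p = 0.272). Both overlapped between groups. Gnb2 gave 0.00 and Gnb3 -0.02, the latter with a wide interval of -0.32 to 0.28.

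Gnb5 differs from the other beta subunits in that it pairs with RGS proteins of the R7 subfamily in place of a gamma subunit. It read 2.20, 2.24, 2.43 and 2.23 in fasted and 2.35, 2.35, 2.41 and 2.37 in fed brain. Fasted array 3 was the highest of all 8 arrays, and the other fasted arrays were below every fed array. With all arrays the difference was -0.10 (-0.22 to 0.02; limma adjusted p = 0.222). Without fasted array 3 it was -0.15 and passed (limma adjusted p = 0.0178).

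The gamma subunits, small lipid-modified proteins that hold the dimer in the membrane, had 4 of the 8 falls, where 9.66% of all genes tested were lower. Of the 4, Gng5 and Gngt2 lost the call under 11 and 9 of the alternatives. The differences of all 11 tested gamma genes were below 0. Their median was -0.11, beside -0.04 for alpha, -0.02 for beta and -0.04 for RGS genes and -0.01 for all genes tested, of which 8973 were below 0 and 8084 above. The 2 gamma genes nearest 0, Gng3 and Gng7, were above it with median scaling, and 1 gene was above it with quantile normalisation and with normexp background correction. Leaving out fasted array 4, fed array 1 or fed array 2 put 2, 1 and 2 genes above 0, and 2 were above 0 on slide 2 alone. After each gene was centred on its mean over the arrays, the median gamma gene lay between -0.09 and 0.00 on fasted arrays and between 0.04 and 0.09 on fed arrays. The members were not chosen independently of this contrast, and the gamma class was not tested as a set.

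Gng11 had the largest fall among the subunits. It encodes a farnesylated gamma subunit of broad, largely non-neuronal expression. Fasted arrays read 1.71, 1.77, 1.77 and 1.84, and fed arrays 2.32, 2.16, 2.16 and 2.17. The groups were far apart, and fed array 1 stood above the other fed arrays. The level fell 1.35-fold (1.25 to 1.46; limma adjusted p = 0.00158), from a mean of 2.21 ± 0.08 in fed to 1.77 ± 0.05 in fasted brain (SD, n = 4). Slide 1 gave -0.50 and slide 2 gave -0.36. The mm9 position of its probe is chromosome 6, bases 3958364 to 3958423.

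Gng8, a gamma subunit known from olfactory and vomeronasal neurons and from the habenula, read -1.61, -1.61, -1.69 and -1.58 in fasted and -1.25, -1.33, -1.40 and -1.28 in fed brain. Every fasted array was lower than every fed array. The fall was 1.24-fold (1.16 to 1.33; limma adjusted p = 0.00319), and it was nearly equal on the slides, at -0.32 and -0.30. The probe is at 17480598 to 17480657 of chromosome 7 in mm9.

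The falls of Gng5 and Gngt2 were smaller or less certain. Gng5, a gamma subunit expressed in many tissues and in glia, read 3.06, 3.07, 3.13 and 3.05 in fasted and 3.21, 3.17, 3.16 and 3.20 in fed brain. The groups were separate but close, with a 1.08-fold fall (1.03 to 1.13; limma adjusted p = 0.0408). With the replicate number as a block the call was lost (limma adjusted p = 0.0897). It was also lost when any 1 array other than fasted array 3 was left out (limma adjusted p from 0.0653 to 0.0991).

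Gngt2, the gamma subunit of cone transducin, read -0.55, -0.50, -0.35 and -0.34 in fasted and -0.27, -0.28, -0.10 and -0.20 in fed brain. The groups did not overlap, and in both the arrays of slide 2 were higher than those of slide 1. The fall was 1.17-fold (1.05 to 1.29; limma adjusted p = 0.0446), with -0.25 and -0.19 within slides 1 and 2. Leaving out fasted array 1, fasted array 2 or any fed array ended the call (limma adjusted p from 0.0639 to 0.106). With slide as a block the adjusted p was 0.00719.

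Gng2 and Gng3 did not pass. Gng2 read 2.15, 2.05, 2.14 and 2.09 in fasted and 2.19, 2.21, 2.26 and 2.01 in fed brain, a difference of -0.06 (-0.19 to 0.07; limma adjusted p = 0.483). Gng3 read 4.72, 4.74, 4.71 and 4.64 in fasted and 4.76, 4.77, 4.70 and 4.59 in fed brain, a difference of 0.00 (-0.11 to 0.10; limma adjusted p = 0.956). Both genes encode gamma subunits abundant in brain, and the values of the groups interleaved.

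Gng7, which assembles with Golf alpha in the striatum, read 2.71, 2.73, 2.74 and 2.67 in fasted and 2.75, 2.77, 2.74 and 2.66 in fed brain. The groups overlapped, with a difference of -0.01 (-0.09 to 0.07; limma adjusted p = 0.817). Gng13, known from taste cells and retinal bipolar cells, read 3.70, 3.79, 3.86 and 3.80 in fasted and 3.78, 3.88, 3.83 and 3.92 in fed brain, a difference of -0.07 (-0.17 to 0.04; limma adjusted p = 0.341).

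Gng4 had the widest spread of the class. It read -2.99, -2.67, -3.12 and -2.80 in fasted and -2.81, -2.63, -2.73 and -1.91 in fed brain, and fed array 4 was far above the others. The difference of -0.37 (-0.83 to 0.09; limma adjusted p = 0.225) did not pass, at -0.11 on slide 1 and -0.64 on slide 2. Of the other 2 gamma genes, Gng12 gave -0.08 (-0.16 to -0.01) with separate groups and Gng10 gave -0.12 (-0.28 to 0.05), and neither passed.

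**Figure D2:**
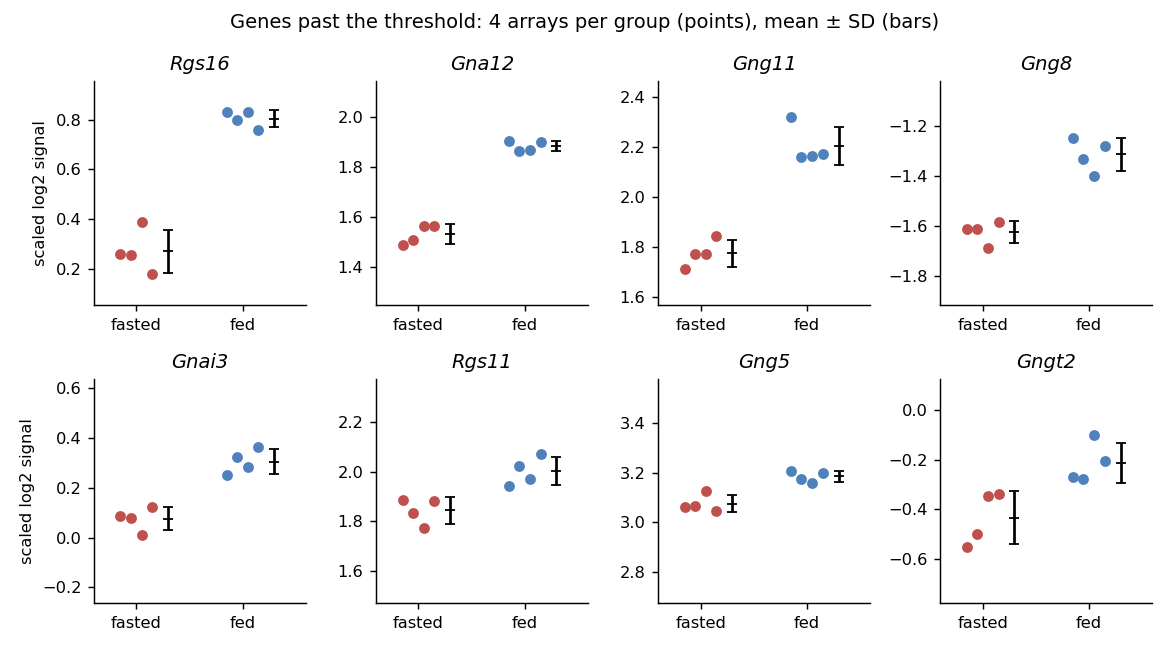
Scaled log2 signal of the 8 genes past the threshold on each of the 4 fasted and 4 fed arrays (points), with the mean and SD of each group (bars beside the points), ordered by adjusted p. Each panel spans the same range of 0.9 on the log2 scale, so gaps can be compared between panels: Rgs16, Gna12, Gng11 and Gng8 show wide gaps, and Gng5 and Rgs11 narrow ones.

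Rgs16 fell most of all family genes. It belongs to the R4 subfamily, small RGS proteins that act on Gi/o and Gq alpha, and is known as a gene with a daily rhythm in the suprachiasmatic nucleus. Fasted arrays read 0.26, 0.26, 0.39 and 0.18, and fed arrays 0.83, 0.80, 0.83 and 0.76. The fed arrays lay close together, and the highest fasted array was far below the lowest fed array. The group means were 0.27 ± 0.09 for fasted and 0.80 ± 0.03 for fed brain (SD, n = 4), a 1.45-fold fall (1.34 to 1.56; limma adjusted p = 0.000825). It measured -0.56 on slide 1 and -0.51 on slide 2, and between -0.57 and -0.48 over the alternatives. Its probe covers bases 155592244 to 155592303 of chromosome 1 (mm9).

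The other R4 genes did not pass, and they lay on both sides of 0. Rgs2, which prefers Gq alpha, read 3.42, 3.37, 3.36 and 3.38 in fasted and 3.43, 3.43, 3.50 and 3.40 in fed brain, a difference of -0.06 (-0.13 to 0.01; limma adjusted p = 0.233). Rgs4, a neuronal RGS gene, read 3.45, 3.36, 3.44 and 3.33 in fasted and 3.33, 3.26, 3.35 and 3.16 in fed brain, a difference of 0.12 (0.01 to 0.24; limma adjusted p = 0.129). The groups of both genes overlapped.

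Rgs5, a marker of pericytes in brain vessels, read -0.35, -0.38, -0.62 and -0.36 in fasted and -0.25, -0.25, -0.24 and -0.24 in fed brain. The fed arrays were almost equal, all fasted arrays were lower, and fasted array 3 was lowest by far. The difference was -0.18 (-0.32 to -0.04; limma adjusted p = 0.0738). Without fasted array 3 it was smaller, -0.12, and passed (limma adjusted p = 0.0262). Rgs3 gave 0.14 (0.02 to 0.25) and Rgs8 gave 0.02 (-0.14 to 0.17).

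Of the 4 R7 genes, whose proteins need Gnb5 as a partner, 1 passed and 3 did not. Rgs11, described mainly in retinal bipolar cells, read 1.89, 1.83, 1.77 and 1.88 in fasted and 1.94, 2.02, 1.97 and 2.07 in fed brain. The groups were separate by a small margin, and the fall was 1.11-fold (1.04 to 1.19; limma adjusted p = 0.0344). Leaving out any 1 array other than fed array 1 ended the call (limma adjusted p from 0.0527 to 0.083). Rgs6 gave -0.12 (-0.21 to -0.03; limma adjusted p = 0.0681) with separate groups, and passed without fasted array 3 (0.0378).

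Rgs7 read -0.31, -0.26, -0.24 and -0.23 in fasted and -0.32, -0.30, -0.41 and -0.32 in fed brain, a difference of 0.08 (0.00 to 0.16; limma adjusted p = 0.16). Rgs9, the RGS gene of the striatum and of photoreceptors, read 3.06, 3.12, 3.16 and 3.15 in fasted and 3.18, 3.21, 3.22 and 3.17 in fed brain. Its groups were separate by a narrow gap, and the difference of -0.07 (-0.15 to 0.00; limma adjusted p = 0.145) did not pass. Gnb5 and its 4 partners thus included 1 gene past the threshold, and Rgs7 lay on the other side of 0 from the rest. Their membrane anchors Rgs7bp and Rgs9bp gave -0.02 (-0.21 to 0.17) and -0.29 (-0.86 to 0.28).

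In the R12 subfamily, which acts on Gi/o alpha, 0 of 3 genes passed. Rgs10, an RGS gene of microglia and of neurons, read 2.30, 2.25, 2.39 and 2.27 in fasted and 2.33, 2.36, 2.39 and 2.39 in fed brain, a difference of -0.06 (-0.15 to 0.03; limma adjusted p = 0.286). Rgs14, a gene of hippocampal area CA2, read 1.54, 1.54, 1.52 and 1.64 in fasted and 1.61, 1.66, 1.64 and 1.60 in fed brain, a difference of -0.07 (-0.14 to 0.01; limma adjusted p = 0.22). Both overlapped between groups. Rgs12 gave -0.03 (-0.18 to 0.12). The RZ genes Rgs17, Rgs19 and Rgs20, which act on Gz and Gi/o alpha, gave 0.05, 0.04 and 0.01, and 0 of 3 passed.

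Groups that do not overlap were seen for 15 of the 49 genes, against 26.4% of all genes tested. These were the 8 genes that fell, 5 further genes that were lower on every fasted array (Gnaz, Gng12, Rgs5, Rgs6 and Rgs9) and 2 that were higher, Gna11 and Gna13. The differences on the slides can be read for each gene in the plot of slide 1 against slide 2. All 8 genes that passed were below 0 on both slides. When limma was run on the 2 fasted and 2 fed arrays of a single slide, 0 of all 17057 genes passed on either slide. That 0 family genes passed there therefore shows nothing particular to the family. At an unadjusted limma p under 0.05, in either direction, there were 14 family genes on slide 1 and 6 on slide 2. The share of all genes at that level is not given here either, and nothing is read from these 2 numbers.

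**Figure D3:**
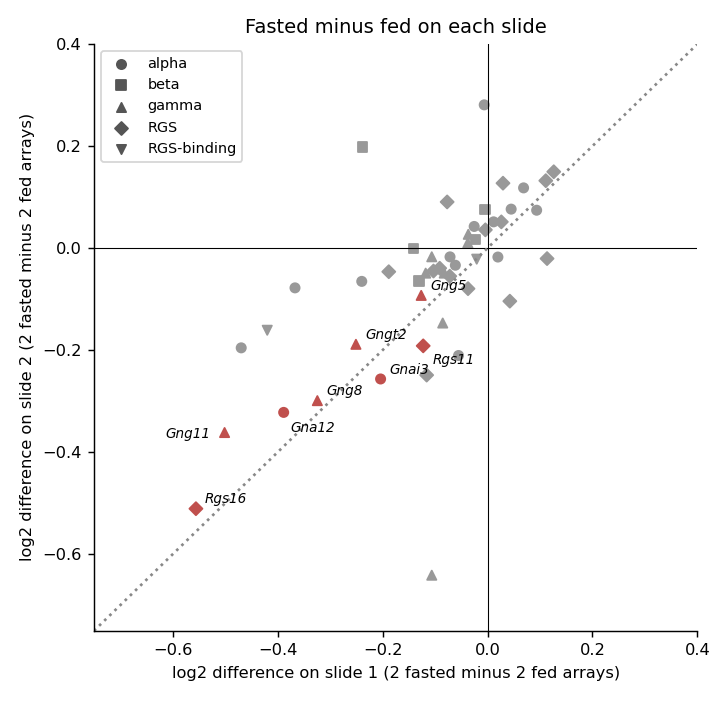
Log2 difference, fasted minus fed, of each tested gene on slide 1 (horizontal axis) and on slide 2 (vertical axis), each from 2 fasted and 2 fed arrays; shapes give the class, red marks the 8 genes past the threshold in the comparison of all arrays, and the dotted line marks equal values. The 8 genes lie near the line in the lower left, from -0.56 and -0.51 for Rgs16 to -0.13 and -0.09 for Gng5, and the grey triangle far below the line is Gng4 at -0.11 and -0.64.

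Several family genes give more than 1 transcript, and their probes did not always move together. Of the tested genes, 21 had more than 1 kept probe, with 31 probes beside the brightest, of which 24 had the same sign as the brightest. Adjusted over the 26066 kept probes, 4 of the 31 passed. Of all 26066 kept probes 4411 passed, and nothing is read from the 4 of 31 beside them. For each gene of these 4 probes the brightest probe had not passed. The first 30 bases of the Gnao1 and Gnas probes are shown, with the transcript the array files name for each, since the probes of these genes are named for different transcripts and are taken up next.
Gnao1, NM_010308, brightest: CTGCCAGCCTACTTCTCTAATGGATTCCTG
Gnao1, NM_001113384: GGACACCAACAACATCCAATTCGTCTTTGA
Gnas, NM_010309, brightest: TAAGAGTGAAACGTAATTGTACAAGCAGTT
Gnas, NM_019690: CTGCACGTCTTTCTTCCTATGACTCTACAA
Gnas, ENSMUST00000109095: ATGGGGGACATTGAAGGGATTTGCTGGAGC
Gnas, NM_201617: ACTTCTTCACCCGAGCCTTCGGAAGCTGCT

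The Gnao1 probe assigned to NM_001113384, at 96480068 to 96480127 of chromosome 8 in mm9, had a mean of -1.58 in fasted and -1.35 in fed brain. It fell by 0.23 ± 0.05 on the log2 scale (SE, n = 4 per group; limma adjusted p over probes = 0.0256). The brightest Gnao1 probe lies downstream, at 96493228 to 96493287, and gave 0.06 ± 0.04. Gnao1 is known to give alternative proteins that differ in their last exons. Whether the values of these probes differ from each other was not tested.

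Gnas is an imprinted locus with several first exons that splice to common downstream exons, and its probes spread over it from 174122337 to 174171992 on chromosome 2 in mm9. The probes of NM_010309 and NM_019690 gave -0.04 and 0.10. Those of ENSMUST00000109095 and NM_201617, which lie furthest upstream, gave -0.30 (limma adjusted p over probes = 0.0944) and -0.37 (0.144), the latter above background on only 2 arrays of each group. None of the 4 passed.

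The other probes that passed were dimmer probes of Gnb5 at -0.17 (limma adjusted p over probes = 0.0379), of Rgs6 at -0.18 (0.0282) and of Gna13 at 0.20 (0.0444). In each the sign was that of the brightest probe. For Rgs9, whose retinal and striatal forms differ in their last exons, the 3 other probes gave -0.12, -0.33 and -0.08, and 0 of them passed.

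**Figure D4:**
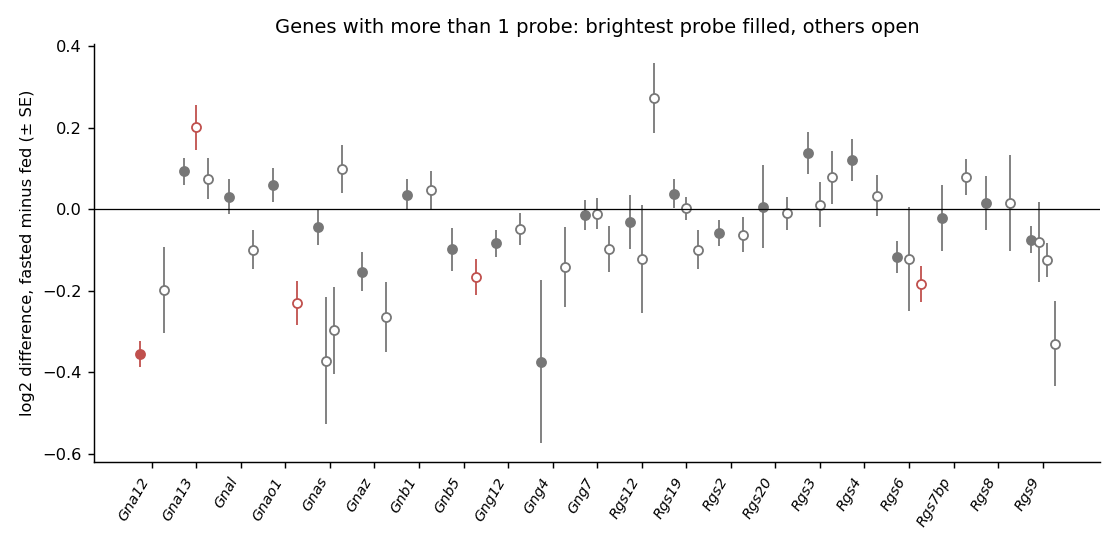
Log2 difference, fasted minus fed, with its SE over 4 arrays per group, of every kept probe of the 21 genes with more than 1 kept probe; the brightest probe of a gene is filled, the others are open, and red marks an adjusted p under 0.05 over all kept probes. Gnao1 has a grey filled point at 0.06 and a red open point at -0.23, and the Gnas points run from 0.10 to -0.37.

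Several family genes lie side by side in the genome, and the values of such neighbours ranged from alike to opposite. Rgs16 and Rgs8 are neighbours on chromosome 1, with 47.4 kb between their probes in mm9, and Rgs8 differed by 0.02 where Rgs16 fell. Rgs5 and Rgs4, 48.5 kb apart on the same chromosome, lay on opposite sides of 0 at -0.18 and 0.12. Gnai3 and Gnat2 were 6.4 kb apart on chromosome 3 and gave -0.23 and -0.13. Gng11 lies 11.6 kb from Gngt1 on chromosome 6, and Gngt1 was among the genes not tested. In the cluster of Rgs2, Rgs13, Rgs1, Rgs21 and Rgs18 on chromosome 1, Rgs2 alone was above background.

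The genes that G proteins act on or that act on them were taken from lists of 42 genes, of which 40 were tested and 4 were higher and 4 lower in fasted brain. That share of 20% lies at the 19.9% of all genes tested, so the count shows nothing particular to these lists. None of 9 adenylyl cyclases passed, the enzymes that Gs stimulates and Gi/o inhibits, and their median difference was -0.07. Of 9 receptor kinases and arrestins, which shut off active receptors, 0 passed either, with a median of -0.03.

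The targets of Gq and of beta-gamma each held a rise and a fall. Among 4 phospholipases C beta, Plcb1, abundant in forebrain neurons, rose 1.24-fold (difference 0.31 ± 0.08, SE, n = 4 per group; limma adjusted p = 0.0266) and Plcb3 fell 1.18-fold (-0.24 ± 0.05; limma adjusted p = 0.0117). Among 4 GIRK channel subunits, Kcnj3 rose 1.27-fold (0.34 ± 0.06; limma adjusted p = 0.00658) and Kcnj6 fell 1.18-fold (-0.24 ± 0.05; limma adjusted p = 0.0139). Kcnj5 and Kcnj9 gave 0.05 and -0.09 and did not pass. GIRK channels are tetramers of these subunits in varying combinations.

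Of the 3 exchange factors that G12 and G13 activate, Arhgef11 rose by 0.16 (limma adjusted p = 0.0301), and Arhgef1 and Arhgef12 gave 0.05 and -0.02. On the input side of these factors, Gna12 fell and Gna13 gave 0.09 without passing, and a link with the factors was not tested. Of 11 other regulators of alpha subunits and genes with an RGS domain, 1 rose and 2 fell. Axin2, a scaffold of Wnt signalling with an RGS-like domain, rose by 0.26 (limma adjusted p = 0.0153). Ric8b, a chaperone and exchange factor of Gs and Golf alpha, fell by 0.17 (limma adjusted p = 0.00926). Snx14, a sorting nexin with an RGS domain, gave -0.15 (limma adjusted p = 0.0274, but 0.0651 when the fit held a block for replicate number).

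The tissue label was checked against marker lists. All 6 neuron markers were measured and 0 passed, with a median difference of 0.04. Of the markers of pituitary 1 of 6 was measured, and Gh, Prl, Cga, Pou1f1 and Tshb were not well above background on enough arrays to be tested.

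Some markers of non-neuronal cells were lower along with the genes that fell, and every marker of the lists in this paragraph was measured. Of 6 microglia markers 4 were lower in fasted brain (Aif1, Tmem119, P2ry12 and Csf1r), with a median difference of -0.30. The summed linear level of the list was 42.6 to 47.7 in fasted and 44.8 to 49.1 in fed brain, in units of the array's 75th percentile. Cx3cr1 and Itgam gave -0.14 and -0.01 without passing, and the bright probe of Itgam weighs most in that sum. Of 6 endothelial markers 2 were lower (Cdh5 and Tek), with a median of -0.17 and sums of 8.12 to 9.09 and 8.74 to 9.30. Of 6 oligodendrocyte markers 3 were lower, with a median of -0.13 and sums of 85.7 to 94.6 and 95.7 to 103. Of 6 pericyte and smooth muscle markers 2 were higher and 1 lower, their median was 0.07, and their sums were 2.15 to 2.24 and 2.16 to 2.25. Of 6 astrocyte markers 1 was lower, Aqp4, while the list's median was 0.08 and Aldh1l1, Slc1a3, Aldoc and Gfap gave 0.13, 0.12, 0.09 and 0.06 without passing. Of 6 blood cell markers 1 was lower, Ptprc, with a median of -0.11, and S100a8 gave 0.69 without passing. In tissue, fewer cells of a type and less RNA per cell cannot be told apart. The part of these markers in the falls of Gng11, Gng5, Gngt2 and Gnai3 was not tested.

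Of 8 striatal markers 1 was lower, Gpr6, with a median of -0.04 and sums of 35.0 to 37.3 in fasted and 33.8 to 36.3 in fed brain, beside Gnal, Gng7 and Rgs9, of which 0 passed. Of 6 choroid plexus markers 1 was higher, Clic6 at 0.33, with a median of 0.06 and sums of 35.92 to 39.85 in fasted and 36.48 to 41.42 in fed brain. Kcne2 gave -0.27 and did not pass (limma adjusted p = 0.0671). It passed with slide (0.0373) or replicate number (0.0273) as a block. Ttr gave -0.05, and Kl, Aqp1 and Folr1 gave 0.07, 0.11 and 0.04, all without passing.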

How the data were processed

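The authors deposited, for each array, spot intensity values from the scanner software, Agilent Feature Extraction 11.0.1.1 per the file headers (10.10.1.1 per the submitters' processing notes), on an array design in mm9. Their deposited series table is a linear ratio for every probe and matched the scanner values over each array's 75th percentile apart from a constant per probe (spread 0.000179, log2). The baseline behind that constant is unknown, and the table's column medians were 0.970, 0.993, 0.973 and 0.987 in the fasted replicates 1 to 4 and 0.987, 1.02, 0.991 and 1.02 in the fed ones. The table served as an alternative.

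From log2 of the processed signal, the log2 of the 75th percentile of all non-control spots on that array (1651 to 1944 intensity units) was subtracted. Control and outlier spots (128 to 217 per array) were left out, 0 spots were saturated, and spots of a probe were averaged. Per array 24567 to 27220 probes (62.3% to 69.0%) were well above background, meaning at least 0.5 of a probe's spots, and 26066 were kept. The number of arrays limits the precision. Probes were named through RefSeq (GRCm38.p6) for 27427 probes and otherwise as in the files. Exons under probes were not analysed here.

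The groups were tested in R 4.3.3 with limma 3.58.1 (lmFit, eBayes, two-sided, Benjamini-Hochberg), a procedure tested on simulated data. With 200 changed genes per run, it called 45.1% of 1.2-fold, 80.9% of 1.5-fold and 92.7% of 2-fold changes. The simulated arrays were independent and held fewer changed genes than were called here, so these shares are only a rough guide. A gene that did not pass may still differ by a small fold. Intervals are 95% confidence intervals of log2 differences or of folds. Alternatives changed scaling, background correction, filter, probe choice, slide or replicate block, source of values and the arrays included. Deviations of same-numbered arrays from their group means correlated at 0.17, 0.29, 0.31 and 0.18, so the replicate block is given where it changes a call. Same-numbered arrays share a slide and neighbouring positions, and pairing cannot be told apart from these. Values on every array are given for genes past the threshold and for a set of 23 genes named whether or not they passed. The family members, this rule and all lists were chosen with earlier results of these data known. A marker list that the design names is not reported here.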

Additional observations from a re-analysis of the deposited data

Results flagged for a closer look

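In 6 of the 98 groups of 4 arrays examined, 1 array stood apart from the others of its group by more than Dixon's 95% critical value for the gap over the range, and chance alone flags about 1 in 20 groups. Fasted replicate 3 was the array in 4 of the 6. It read -0.62 for Rgs5, where the other fasted arrays averaged -0.36, and 2.66 for Rgs17 (others 2.91). It read 3.82 for Gnal (others 3.67) and 2.43 for Gnb5 (others 2.22). Fed replicate 1 read 2.32 for Gng11 (others 2.17), and without it Gng11 still passed. Fed replicate 4 read -3.89 for Gnat2 (others -4.41), a gene close to background.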

How the results depend on the processing

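Of the 49 genes under 17 alternatives, 793 of 830 values kept their side of the threshold, 30 lost the call and 7 gained it. The sign differed from the reported one in 49 of the 830, in 14 genes, of which 0 were among the 8 that passed. The number of family genes lower in fasted brain was 8, and it was 5 with median scaling, 5 with normexp background correction and 5 without a filter on dim probes. Over all genes tested the number lower moved too. It was 1647 of 17057, then 1080 with median scaling, 1156 with normexp and 1126 of 24300 without the filter. The family number was 7 with the replicate number as a block (1610 over all genes). It ranged from 5 to 10 when 1 array was left out (1079 to 1529 over all genes). It was 5 without fasted replicate 1 or 2 or without fed replicate 2, 3 or 4, 6 without fasted replicate 4 or fed replicate 1, and 10 without fasted replicate 3, when Rgs5, Rgs6 and Gnb5 were gained and Rgs11 was lost. Within slide 1 or slide 2 alone it was 0, as it was over all 17057 genes tested, so all 8 calls were lost on both slides. The sign differed there in 12 of 98 single-gene values, 0 of them of the 8 genes. With the mean of all kept probes 1 gene, Gna13, was higher, and the alpha median was -0.0846. Leaving out 1 array gave medians of -0.0556 to -0.00317 for alpha, -0.0855 to 0.00687 for beta, -0.11 to -0.09 for gamma and -0.0647 to -0.0374 for RGS genes. The RGS median was -0.0256 with median scaling, and the beta median was -0.13 on slide 1 alone. The causes were not tested. Probes near background, such as those of Gnat1, Gna14 and Rgs9bp, limit what the arrays can show of these genes.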
